A study of Mus musculus with 13 samples.

Results

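The non-beta cells of mouse pancreatic islets were compared between animals labelled as a knockout of Txnrd1 in beta cells and control animals, in 6 RNA-seq libraries of the 13 in the series. The 3 knockout libraries (replicates 1, 2 and 3) came from mice with both Txnrd1 alleles floxed (Txnrd1.fl/fl), with Ins1.Cre/+ and with the reporter Rosa26.mTmG/mTmG. The 3 control libraries (replicates 2, 3 and 4) came from mice with the same Cre and reporter genotype and wild-type Txnrd1 (Txnrd1.+/+), so both groups carried Ins1-driven Cre and 2 copies of the mTmG membrane reporter, and the floxed Txnrd1 alleles set them apart. All mice were of the C57BL/6 strain and 10 to 20 weeks old, per the labels. Islets were kept overnight at 5.5 mM glucose, dispersed and sorted, and live cells that still showed Tomato fluorescence, in which Cre had not recombined the reporter, were collected as non-beta cells. All 6 libraries whose labels gave this sort gate entered, and 18908 of the 55421 genes in the count table passed the expression filter and were tested. The labels do not say whether a library came from 1 animal or a pool, so the p-values measure the spread between these samples.

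Txnrd1 encodes the cytosolic thioredoxin reductase, a selenoenzyme that passes electrons from NADPH to thioredoxin, which in turn reduces peroxiredoxins and other proteins. Loss of this enzyme is known to activate NRF2, a transcription factor that induces glutathione, thioredoxin and detoxification genes. Ins1 is an insulin gene, so Cre driven from it acts in beta cells. The remaining islet cells, namely alpha, delta and PP cells with the endothelial, immune and stromal cells between them, share the islet with the knockout beta cells while keeping their own Txnrd1.

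The 6 libraries held 28973507 to 34704024 counts each. The sorted fraction carried the hormone transcripts of non-beta endocrine cells. Gcg, which encodes glucagon, made up 15.7 to 19.9% of the counts of a library. By the authors' RPKM, a unit that divides by gene length, the median control level was 128081 for Gcg, 73507 for Ppy, 17694 for Sst and 2452 for Ins2. Libraries of 1 group were about as far apart as libraries of different groups, with Spearman correlations of 0.973 to 0.988 among controls, 0.974 to 0.990 among knockouts and 0.972 to 0.987 between the groups. Knockout replicate 3 stood apart in its beta-cell transcripts: Ins2 made up 2.46% of its counts, against 0.159 to 0.689% in the other 5 libraries. Control replicate 4 has a label identifier outside the consecutive run of the others, and the labels do not say what that marks. Each library held both Xist and Y-linked transcripts, without separation of the groups. Xist was at 19.6 to 56.7 and Eif2s3y at 8.53 to 21.2 CPM (counts scaled to a common library size). Every library thus held transcripts of both sexes, as a pool of male and female animals would.

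Txnrd1 was measured at similar levels in both groups of non-beta cells. Its CPM, scaled by TMM over the 6 libraries as all CPM of non-beta cells below, was 263, 261 and 274 in control replicates 2, 3 and 4. In knockout replicates 1, 2 and 3 it was 248, 217 and 258. The knockout libraries lay below the controls, by less than the test could separate from library spread (266 ± 7.27 and 241 ± 21.1 CPM, mean ± SD, n = 3 each). The log2 fold change was −0.14 ± 0.12 (SE; edgeR adjusted p = 0.999). In the sorted beta cells of the same genotypes the log2 fold change was 1.00 (edgeR adjusted p = 2.22e-05). The difference between the fractions was −1.15 with a standard error of 0.13 (edgeR interaction contrast, adjusted p = 0.00208). Txnrd1 lies on chromosome 10 (82833951 to 82897712, + strand, GRCm38). Because reads were counted over all exons and the labels do not name the floxed ones, the count does not check the genotype.

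No gene passed the threshold between knockout and control non-beta cells. Of 18908 genes tested by the quasi-likelihood test of edgeR, 0 (0%) had a Benjamini-Hochberg adjusted p below 0.05, and the smallest adjusted p was 0.23. At an unadjusted p below 0.05 there were 821 genes (4.34%), of which 350 were higher (1.85%) and 471 lower (2.49%) in knockout libraries. The 3 knockout libraries lay wholly above the 3 controls for 828 genes (4.38%) and wholly below for 998 (5.28%). Differences were small, with a median absolute log2 fold change of 0.145 and a median of −0.0026 over all tested genes. Among genes measured in both fractions the median absolute log2 fold change was 0.134 in non-beta and 0.212 in beta cells, where the same test called 3525 of 17525 genes (20.1%). Spread between libraries was also larger in non-beta cells, with a common biological coefficient of variation of 0.224 against 0.127 in beta cells.

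The count of calls depended on the tool. DESeq2 called 29 of 15598 genes with an adjusted p (0.186%), 8 higher and 21 lower, and limma-voom called 0. A fit in which all 13 libraries shared 1 estimate of spread called Tdg, Rps4l and Rerg, all lower (0.015%). The authors' deposited table lists 12 of 12853 genes with a false discovery rate below 0.05 (0.0934%), 5 higher and 7 lower. All 12 had an unadjusted edgeR p below 0.05 here, and 11 were among the DESeq2 calls. In simulated libraries of this size with 18908 genes, the edgeR test recovered 30% of 2-fold and 88% of 4-fold differences between the non-beta groups. Of its calls 11.1% were false. The simulation held 50 changed genes at each of 1.5-, 2-, 4- and 8-fold. Each gene was drawn on its own, without shifts in cell mixture shared between genes. Recovery in the real libraries may therefore be lower.

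**Figure D1:**
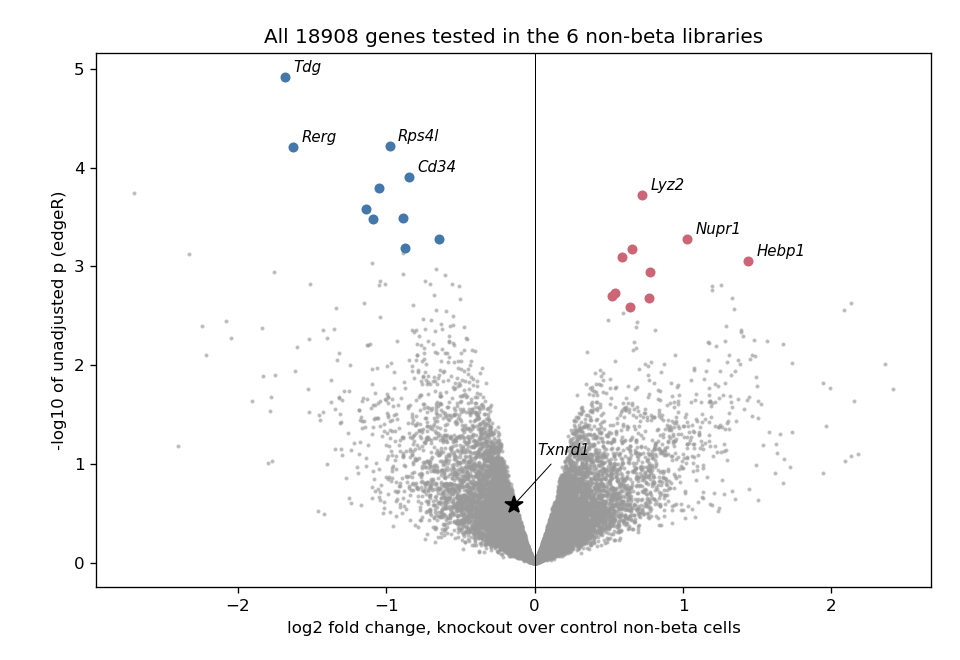
log2 fold change of knockout over control non-beta cells (x axis) against −log10 of the unadjusted edgeR p (y axis) for the 18908 tested genes (grey points). Blue and red points are the 10 lower and 10 higher genes named by rule, and the star is Txnrd1; Tdg lies highest, at an adjusted p of 0.23 by edgeR.

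The genes nearest to the threshold were described as a ranked set that did not pass: the 10 with the smallest p in each direction among genes whose mean reached 5 CPM in either group. Lower in knockout libraries were Tdg, Rps4l, Rerg, Cd34, St8sia4, Gm28536, Gm16897, Clic5, Msn and Gpr180. Higher were Lyz2, Nupr1, Rnase4, Ang, Hebp1, Tyrobp, Mrps35, Hspe1, Uggt2 and Setd5. The groups did not overlap for any of the 20, where 9.66% of all tested genes did not overlap; the ranking by p favours this, and nothing is read from it.

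Tdg, which encodes thymine DNA glycosylase, an enzyme of base excision repair and of active DNA demethylation, had the smallest p. Tdg was measured at 22.66, 29.004 and 27.9 CPM in control replicates 2, 3 and 4 and at 9.82, 6.89 and 8.03 CPM in knockout replicates 1, 2 and 3. Every knockout library thus held less than any control library, on average 3.21-fold less by the fitted fold change (26.5 ± 3.39 against 8.25 ± 1.47 CPM, n = 3 each). The log2 fold change was −1.68 ± 0.18 (SE; edgeR adjusted p = 0.23, unadjusted p 1.22e-05). Leaving out any of the libraries gave log2 fold changes of −1.83 to −1.57, all with an adjusted p above 0.05. In beta cells Tdg stood at −1.64 (edgeR adjusted p = 3.12e-05). The difference between the fractions was not separable from 0 (edgeR adjusted p = 0.968). Tdg lies on chromosome 10 (82629828 to 82650799, + strand), 183 kb from Txnrd1.

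Nupr1, which encodes a small stress-induced chromatin protein, was measured at 112, 107 and 164 CPM in controls and at 245, 238 and 297 CPM in knockout libraries. The lowest knockout library lay above the highest control, control replicate 4, and the fitted fold change was 2.04 (128 ± 31.5 against 260 ± 32.6 CPM, n = 3 each). The log2 fold change was 1.03 ± 0.19 (SE; edgeR adjusted p = 0.823). In beta cells Nupr1 stood at 2.03 on the log2 scale (edgeR adjusted p = 1.01e-04). Tdg, Nupr1 and Hebp1 were the ranked genes with a difference of at least 2-fold in the same direction in both fractions. For Tdg, which had the smallest p, and Nupr1, a known stress response gene, the promoter windows from RefSeq (GRCm38.p6, 250 bases before to 50 after the start site) are shown. Capitals mark the letters TGATGNAA, the core of the C/EBP-ATF response element through which the integrated stress response factor ATF4 acts, searched on both strands.
Nupr1 (chr7:126625421-126625720, − strand): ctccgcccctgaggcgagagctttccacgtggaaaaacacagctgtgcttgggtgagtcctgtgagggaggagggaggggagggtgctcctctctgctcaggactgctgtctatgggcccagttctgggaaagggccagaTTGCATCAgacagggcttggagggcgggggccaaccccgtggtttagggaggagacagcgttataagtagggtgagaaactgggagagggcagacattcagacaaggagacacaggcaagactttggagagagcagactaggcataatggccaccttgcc
Tdg (chr10:82629588-82629887, + strand): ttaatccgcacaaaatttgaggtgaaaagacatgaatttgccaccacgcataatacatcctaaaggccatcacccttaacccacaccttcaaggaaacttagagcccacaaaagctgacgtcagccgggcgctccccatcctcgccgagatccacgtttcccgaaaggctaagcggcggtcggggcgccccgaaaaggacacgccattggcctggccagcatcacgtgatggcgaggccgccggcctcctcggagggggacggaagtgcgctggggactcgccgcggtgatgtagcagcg
The Nupr1 window held 1 match, on the opposite strand, starting 110 bases before the start site, and the Tdg window held 0. Of the 20 ranked genes 15 had a RefSeq window, and Nupr1 was the 1 among them with a match, while Hebp1 had 0. Of all 32851 RefSeq windows of this length, 3.97% held at least 1 match. The letters TGACNNNGC, the core of the antioxidant response element bound by NRF2, were searched in the same way and were found in 3 of the 15 windows (Lyz2, Cd34 and Clic5), against 12.4% of all windows.

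Several of the other lower genes are known from blood vessel cells. Cd34, a sialomucin of endothelial and blood progenitor cells, stood at 80.8, 69.6 and 77.9 CPM in controls and 45.6, 43.6 and 37.6 CPM in knockout libraries (log2 fold change −0.85, unadjusted p 1.24e-04). Msn, which encodes moesin, a linker of actin to the membrane, stood at 213, 180 and 195 against 134, 120 and 123 CPM (−0.65, unadjusted p 5.22e-04). Both were nearly absent from beta cells, with control means of 0.299 and 0.332 CPM. Clic5, a chloride intracellular channel gene (16.3, 11.6 and 13.4 against 6.02, 7.14 and 6.24 CPM), and St8sia4, a polysialyltransferase gene (10.3, 10.99 and 10.9 against 4.88, 5.13 and 5.51 CPM), had a log2 fold change of −1.09 and −1.05. Gm16897 shares 23.0% of its exon bases with Cd34 and A330023F24Rik, so its count is uncertain.

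The remaining lower genes were less tied to 1 cell type. Rps4l, a ribosomal protein S4-like gene, stood at 90.2, 83.1 and 79.0 CPM in controls and 38.2, 48.9 and 41.2 CPM in knockout libraries. Its log2 fold change was −0.98 in non-beta and −0.31 in beta cells, and the difference between fractions was −0.68 with a standard error of 0.14 (edgeR adjusted p = 0.0415). Leaving out any library other than control replicate 3 or knockout replicate 2 of the non-beta cells moved that edgeR adjusted p above 0.05, up to 0.148 without control replicate 2. Rerg, which encodes a Ras-like growth inhibitor, stood at 6.56, 6.02 and 5.90 against 1.61, 2.43 and 1.93 CPM (log2 fold change −1.63). Gpr180, an orphan membrane receptor gene, stood at 75.9, 81.02 and 56.2 against 42.2, 40.1 and 34.1 CPM. Gm28536 shares 27.2% of its exon bases with Stk25, a kinase gene that was itself at 118, 184 and 150 against 75.7, 89.2 and 79.4 CPM, so their reads cannot be told apart there.

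Among the higher genes, Lyz2 and Tyrobp belong to myeloid cells. Lyz2, which encodes lysozyme, stood at 72.2, 75.4 and 63.1 CPM in controls and 111, 120 and 118 CPM in knockout libraries (log2 fold change 0.73, unadjusted p 1.88e-04). Tyrobp, an adaptor of myeloid receptors, stood at 10.98, 13.1 and 14.4 against 22.3, 24.01 and 19.6 CPM (0.78). Rnase4 and Ang, secreted ribonucleases encoded at overlapping positions, had log2 fold changes of 0.65 and 0.59, and 13.4% and 18.2% of their exon bases are shared. Hebp1, which encodes a heme-binding protein, stood at 5.33, 2.57 and 5.32 against 12.04, 13.1 and 10.7 CPM (1.44). A pair of members act in mitochondria: Mrps35, a mitochondrial ribosomal protein gene (19.9, 19.4 and 19.4 against 29.3, 27.4 and 28.7 CPM), and Hspe1, the mitochondrial co-chaperonin gene (41.8, 46.3 and 43.0 against 64.1, 57.3 and 66.5 CPM). Uggt2, of the glycoprotein folding sensor family, and Setd5, a SET-domain chromatin gene, had log2 fold changes of 0.77 and 0.64.

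**Figure D2:**
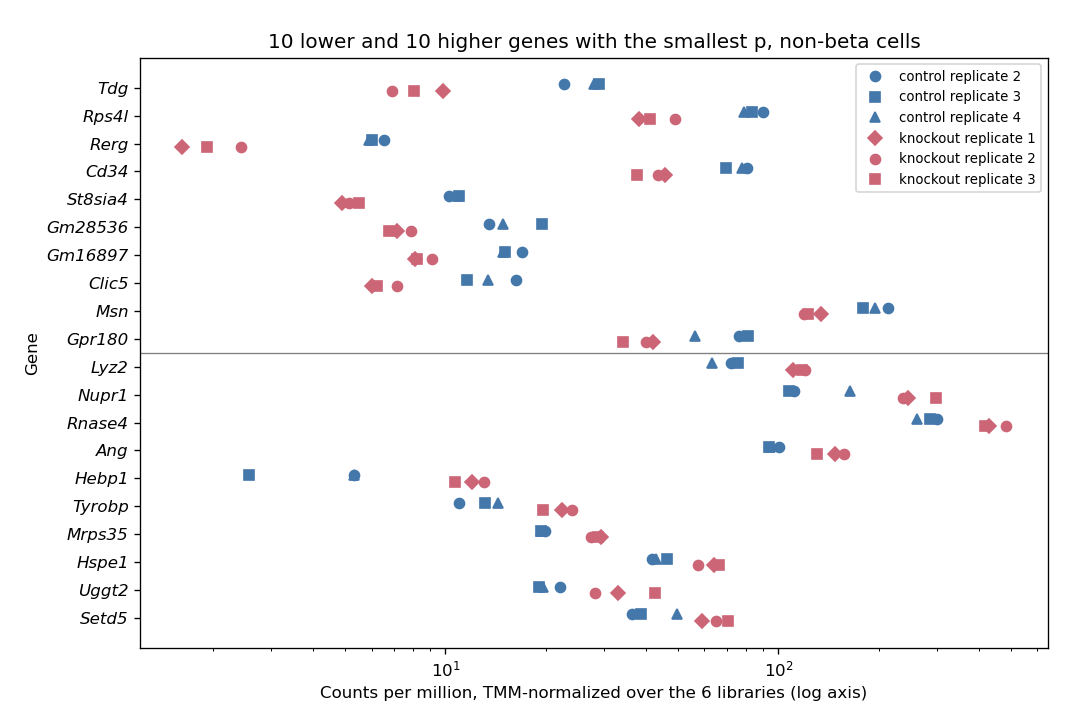
CPM (x axis, log scale) of the 10 lower and 10 higher ranked genes (y axis) in each of the 6 non-beta libraries, with controls in blue and knockouts in red and the symbol giving the replicate. The groups lie apart for all 20 genes, and none passed the edgeR threshold.

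The ranked genes were also read in the beta-cell libraries of the same genotypes. Both fractions were sorted from dispersed islets and share replicate numbers, and the labels do not say whether they share animals, so they may not be independent. Of the 20 genes, 15 entered the beta-cell test and 11 were called there, each in the direction seen in non-beta cells. Besides Tdg and Nupr1 these were Rps4l, Gm28536, Gpr180, Rnase4, Ang, Hebp1, Mrps35, Hspe1 and Uggt2. Hebp1 stood at 1.65 (edgeR adjusted p = 0.0054), Uggt2 at 0.99 (0.00401) and Gpr180 at −0.84 (2.05e-04) in beta cells. Rerg, Clic5, Gm16897 and Setd5 were tested but not called in beta cells. Among all 821 genes with an unadjusted p below 0.05, 606 entered the beta-cell test, 201 were called and 177 of those had the same direction; among all tested genes these counts were 16785, 3410 and 2282.

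Genes that differed at least 2-fold in knockout beta cells had smaller median differences in non-beta cells, in the same direction. Of 340 such genes higher in beta cells 297 were tested here, and their median log2 fold change was 0.13, against 1.46 in beta cells. In non-beta cells 35 of the 297 were higher and 3 lower at an unadjusted p below 0.05, where 1.85% of all tested genes were higher and 2.49% lower. Of 315 genes lower in beta cells 254 were tested, with a median of −0.18 against −1.33 in beta cells, and 0 of the 254 were higher and 28 lower. Without knockout replicate 3, which held the most beta-cell RNA, 304 and 259 members were tested, with medians of 0.12 and −0.22. The counts were then 38 higher with 14 lower, and 1 higher with 30 lower. In that fit 1413 of all tested genes had an unadjusted edgeR p below 0.05, against 821 with all 6 libraries. The test of the difference between fractions called 185 of 19942 genes (0.928%), 71 and 31 of them in these groups. Both groups were chosen by their difference in the beta libraries, which also enter this test. That choice favours larger differences in beta than in non-beta cells, and with them calls of the difference between fractions.

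The 5 genes of each group with the smallest p for that difference are described next; a small difference in non-beta cells is favoured by this choice. Gstp1, a glutathione S-transferase, stood at 175, 186 and 145 CPM in controls and 195, 159 and 224 CPM in knockout libraries. In beta cells Gstp1 went from a mean of 156 to 876 CPM, and the fractions differed by −2.31 on the log2 scale (standard error 0.22, edgeR adjusted p = 9.29e-04). Gstp-ps, a pseudogene whose sequence resembles Gstp1, had the same pattern, with reads that cannot be fully divided between them. Pir, an iron-binding NRF2 target, stood at 7.61, 7.54 and 4.91 against 4.91, 5.37 and 7.44 CPM, and Cat, which encodes catalase, at 35.0, 27.8 and 27.1 against 30.5, 22.0 and 29.5 CPM. F2r, the thrombin receptor gene, differed between fractions by −3.41 (standard error 0.37), although its beta-cell means were only 0.37 and 3.10 CPM. In the other direction Meltf, an iron-binding surface protein gene, stood at 2.17, 2.18 and 3.28 against 2.52, 2.18 and 2.58 CPM in non-beta cells, where beta-cell means were 52.9 and 14.2 CPM. C8b, Enpep, Kctd12b and Atp4a differed between fractions by 1.47, 1.40, 1.49 and 1.79 on the log2 scale. Of these, Kctd12b was also lower in non-beta cells (22.8, 29.3 and 23.9 against 17.2, 18.2 and 18.6 CPM; unadjusted p 0.009).

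**Figure D3:**
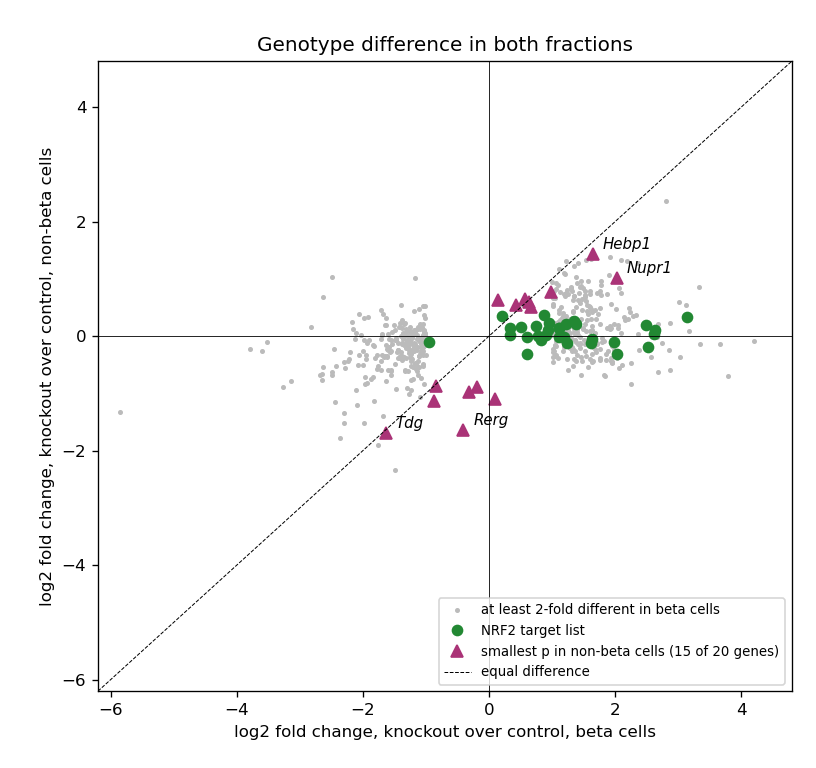
log2 fold change of knockout over control in beta cells (x axis) and non-beta cells (y axis) for genes at least 2-fold different in beta cells (grey), the NRF2 target list (green) and the 15 of 20 ranked non-beta genes that entered both tests (purple). NRF2 targets lie near the horizontal line at 0 (from −0.32 to 0.37), while Tdg lies at −1.64 and −1.68, near the dashed line of equal difference.

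The antioxidant lists had small positive medians in non-beta cells. Of 33 NRF2 targets 32 were tested, with a median log2 fold change of 0.06, and 1 was higher and 0 lower at an unadjusted p below 0.05. Over all tested genes 1.85% were higher and 2.49% lower at that threshold. In beta cells 28 of 31 were called higher and 1 lower, with a median of 1.11, and the difference between fractions was called for 18 members. Of all tested genes 16785 entered the beta-cell test, where 1733 were called higher and 1677 lower. The difference between fractions was called for 0.928% of all genes. The member with p below 0.05 was Fth1, the ferritin heavy chain that stores iron, at 925, 989 and 1015 CPM in controls and 1335, 1238 and 1202 CPM in knockout libraries (log2 fold change 0.37, unadjusted p 0.0194). The summed level of the list was 7259 to 7685 CPM in controls and 8058 to 9307 CPM in knockouts, and did not overlap (two-sided exact permutation p = 0.1, the smallest that 3 against 3 allows; adjusted p = 0.923 over 29 lists). Cbr3, a carbonyl reductase, was at 0.35 and Abcc4, an efflux pump, at −0.32, neither with p below 0.05.

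In the glutathione list 1 of 24 members was higher and 0 lower at that threshold, with a median of 0.06. Over all tested genes 1.85% were higher and 2.49% lower. In beta cells the list median was 0.71, with 14 of 21 called higher, against 1733 of 16785 among all tested genes. The member with p below 0.05 in non-beta cells was Gpx4, the phospholipid peroxidase, at 148, 160 and 159 against 216, 192 and 167 CPM. Gsto1, a glutathione transferase, was at 37.9, 32.5 and 31.1 against 39.1, 40.5 and 44.8 CPM, with groups apart by a small margin (0.29, unadjusted p 0.0551). The thioredoxin and peroxiredoxin list, in which all 24 members were tested, held 0 such members in either direction, with a median of 0.12. Of the 24 members, 20 were above 0 and 3 lay wholly above the controls. Among all 18908 tested genes, 9378 were above 0 and 4.38% lay wholly above the controls. Among 5 genes of superoxide and peroxide removal, Sod1, the cytosolic dismutase, was higher (65.1, 67.2 and 65.8 against 80.0, 81.8 and 73.4 CPM; unadjusted p 0.0454). Sod3, the extracellular dismutase, was lower (8.18, 8.87 and 7.36 against 4.88, 3.29 and 6.00 CPM; unadjusted p 0.0112).

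Stress response lists had medians near 0, with few members past an unadjusted p of 0.05. Nupr1 was the 1 member of 21 in the integrated stress response list with p below 0.05, and the list median was −0.05. In beta cells the list median was 0.61, with 16 of 21 called higher, against 1733 of 16785 among all tested genes. In non-beta cells without control replicate 3 the median was −0.26 with 5 members lower, and without control replicate 4 it was 0.17 with 3 higher. Gdf15, a stress-induced hormone of the same list, stood at 65.8, 51.2 and 47.0 against 53.5, 47.9 and 40.5 CPM. The unfolded protein response list held 0 of 20 members at that threshold (median −0.06). Of 18 heat shock genes 3 were higher, Hspe1, Hsp90aa1 and Dnajb1, with a list median of 0.08, where 1.85% of all tested genes were higher. That count was 1 without control replicate 2, 2 without control replicate 3 or knockout replicate 3, and 6 without knockout replicate 2. Leaving out a library also moved the count over all tested genes, from 375 (without control replicate 2) to 1413 (without knockout replicate 3). Hsp90aa1, a cytosolic chaperone, stood at 246, 240 and 253 against 318, 283 and 365 CPM, and Dnajb1 at 53.6, 52.0 and 58.5 against 77.1, 52.9 and 177 CPM, high mainly in knockout replicate 3. Of 15 p53 targets 1 was lower, Pmaip1 (15.8, 12.3 and 17.96 against 10.9, 9.32 and 12.9 CPM; median −0.04). Of 11 cell-cycle genes tested 1 was lower, the replication licensing gene Mcm6 (37.6, 33.3 and 35.8 against 17.4, 19.02 and 28.4 CPM; unadjusted p 0.00569; −0.72 in non-beta and −0.90 in beta cells). Immediate early genes held 0 of 17.

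Hormone and transcription factor genes of endocrine cells were near control level. In the list of hormone processing and secretion 1 of 20 members had p below 0.05, Pam, the enzyme that amidates peptide hormones (748, 208 and 329 against 835, 895 and 778 CPM; unadjusted p 0.0412), in which control replicate 2 lay close to the knockout libraries. The median was 0.02. Endocrine transcription factors held 0 of 11 (median −0.06). Gcg stood at 192599, 152599 and 188462 CPM in controls and 207409, 195074 and 191336 CPM in knockouts (log2 fold change 0.15, unadjusted p 0.493). Sst, the hormone of delta cells, had a log2 fold change of −0.20 and Ppy, the hormone of PP cells, of 0.27, with overlapping groups for both. Marker lists of alpha (10 genes), delta (7) and PP cells (3) held 0 members with p below 0.05.

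Endothelial transcripts lay lower in the knockout libraries. All 14 endothelial markers had a log2 fold change below 0, with a median of −0.49 (−0.0026 over all tested genes), and 5 were lower at an unadjusted p below 0.05, where 2.49% of all tested genes were lower. Kdr, a receptor for VEGF, stood at 311, 186 and 225 CPM in controls and 128, 130 and 151 CPM in knockouts (log2 fold change −0.82, unadjusted p 0.00243). Plvap, which forms the diaphragms of fenestrated capillaries, stood at 751, 569 and 541 against 434, 421 and 444 CPM. Tek, the angiopoietin receptor gene, stood at 22.8, 18.8 and 20.5 against 15.7, 12.2 and 13.7 CPM. These 3 and Emcn did not overlap between the groups, where 5.28% of all tested genes lay wholly below the controls. Pecam1 was the fifth member with p below 0.05, and Flt1 and Cldn5 were at −0.01 and −0.03.

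The endothelial sum was 2248, 1569 and 2001 CPM in controls and 1402, 1393 and 1458 CPM in knockouts, 1.35-fold lower (two-sided exact permutation p = 0.1, the smallest possible; adjusted p = 0.923 over 29 lists). Leaving out a library gave a log2 difference of −0.58 to −0.32. The count of members lower was 3 without control replicate 2 and 11 without control replicate 3. The whole test moved as well. Genes at an unadjusted edgeR p below 0.005 were 78 with all libraries, 33 without control replicate 2 and 134 without control replicate 3. In a fit of all 13 libraries 0 of the 14 members had an unadjusted p below 0.05, with a median of −0.50. Fewer endothelial cells in the sorted fraction and less of these transcripts per cell cannot be told apart in bulk libraries, here as for all cell type lists below. Cd34, Msn and Clic5 were likewise lower in every knockout library, and the part of this sum in their difference was not tested. Among the controls these genes had the order of the sum. Among the knockouts they did not: the sum was highest in replicate 3, where Cd34 was lowest, and lowest in replicate 2, where Clic5 was highest.

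Among macrophage and dendritic markers 5 of 17 tested members were higher and 0 lower at an unadjusted p below 0.05, all 5 without overlap, where 1.85% of all tested genes were higher at that threshold and 4.38% lay wholly above the controls. They were Lyz2, Tyrobp, C1qb, C1qc and Fcer1g. C1qb, a complement chain made by tissue macrophages, stood at 84.8, 82.8 and 81.0 against 108, 108 and 102 CPM. The count was 1 in the fit of all 13 libraries, 2 with the replicate block, 3 with library totals as the scaling and 3 without knockout replicate 2. The list median was 0.11, and the sum of 18 genes overlapped, at 1200 to 1675 CPM in controls and 1464 to 1667 CPM in knockouts. Other defining markers were level, with Adgre1 at −0.03, Ptprc at 0.11, C1qa at 0.04 and Cd74 at 0.08. Lymphocyte markers summed to 0.484 to 0.793 CPM, with 2 of 9 at 0 in every library, and erythroid markers to 0.142 to 4.21 CPM, with none of 5 tested.

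Duct, mesenchymal and Schwann cell sums overlapped between the groups. Spp1, a duct cell gene, was highest in control replicate 3 (1541, 2727 and 1161 against 1224, 1188 and 1119 CPM). Pdgfrb, the pericyte receptor gene, was the 1 mesenchymal member of 11 tested with p below 0.05 (35.0, 23.4 and 36.6 against 17.6, 26.5 and 21.4 CPM). Ghrl, the single epsilon cell marker, ranged from 0.143 to 34.5 CPM in controls and from 0.345 to 8.78 CPM in knockouts.

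Acinar and beta-cell transcripts varied more between single libraries than between groups. Acinar markers, genes of digestive enzymes, summed to 4012, 4248 and 10718 CPM in controls and 11404, 8072 and 2248 CPM in knockouts. Control replicate 4 and knockout replicates 1 and 2 were thus high and the other 3 libraries low. Beta-cell markers summed to 7500, 12496 and 7791 CPM in controls and 7459, 7171 and 33279 CPM in knockouts, with knockout replicate 3 far above the rest. With that library 0 of 14 beta-cell markers had p below 0.05 (median 0.34), and without it 9 were lower and 0 higher (median −0.84). Of all tested genes, 821 had an unadjusted edgeR p below 0.05 with that library and 1413 without it. The first principal component, with 39.3% of the variance, ran from 39.8 in control replicate 4 to −43.03 in knockout replicate 3. It ordered the libraries much as the acinar sum did. Ins2 and Ins1 were among the genes with most weight at its negative end. Knockout replicate 3 and control replicate 3 (−35.3), which lay lowest, had the highest beta-cell sums. The second component, with 19.8%, ran from −5.58 to 34.0 in controls and from −25.4 to −2.99 in knockouts.

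**Figure D4:**
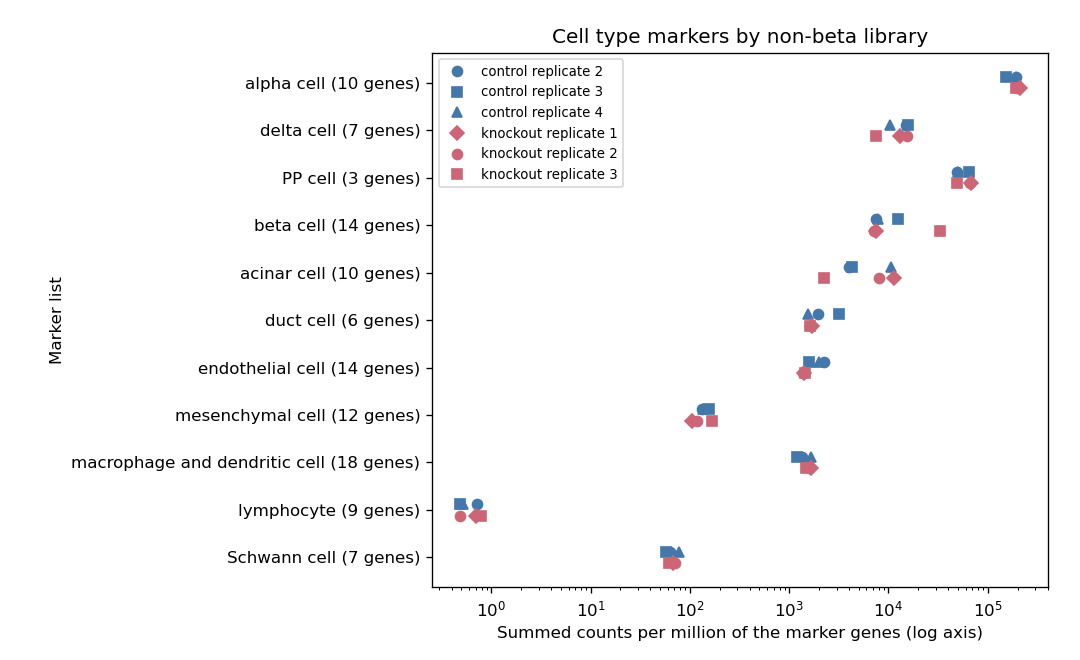
Summed CPM of 11 marker lists (x axis, log scale) in the 6 non-beta libraries, controls in blue and knockouts in red, with the symbol giving the replicate. Endothelial sums lie lower in all 3 knockout libraries, while the beta-cell sum is high in knockout replicate 3 (33279 CPM) and acinar sums are spread over both groups.

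The genes with the largest spread within groups, among those with a mean of at least 20 CPM, named the same libraries. Ins2, Ins1, G6pc2, which encodes the islet glucose-6-phosphatase subunit, and Fam151a were high in knockout replicate 3; G6pc2 stood at 18.1, 35.1 and 16.9 CPM in controls and 9.78, 7.45 and 162 CPM in knockouts. Hspa1a and Hspa1b, the inducible heat shock protein 70 genes, were high in control replicate 4 and knockout replicates 1 and 3. Hspa1b stood at 10.8, 4.9955 and 60.1 against 120, 10.9 and 212 CPM (log2 fold change 2.18, standard error 1.09, unadjusted p 0.0787). Adm, a vasodilator peptide gene, followed a similar order, at 10.5, 4.84 and 28.2 against 31.9, 2.94 and 52.1 CPM. Lrg1, a secreted glycoprotein gene, was high in control replicate 3 (81.6 CPM) and knockout replicates 1 and 2. Gm20481 shares 100% of its exon bases with Hspa1a, and Mir6236 was the remaining gene.

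Mitochondrially encoded protein genes were higher in 2 of the 3 knockout libraries. Of 13 such genes 12 were tested, all with a log2 fold change above 0 (median 0.85). At an unadjusted p below 0.05, 10 were higher and 0 lower, where 1.85% of all tested genes were higher and 2.49% lower. Their sum was 688, 805 and 841 CPM in controls and 829, 1526 and 1585 CPM in knockouts, so knockout replicate 1 lay at control level and the sums overlapped (two-sided exact permutation p = 0.2). mt-Co1, a subunit of cytochrome c oxidase, stood at 124, 121 and 119 against 118, 256 and 335 CPM. Without knockout replicate 2 the count was 4 of 12 and the median 0.51, and without control replicate 2 the count was 3. In the fit without control replicate 2, 375 of all tested genes had an unadjusted edgeR p below 0.05, against 821 with all libraries. These genes made up only 0.0696 to 0.156% of the counts.

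Interferon response genes mostly lay below control level, and control replicate 4 held the most of them. Of 26 tested members 24 had a log2 fold change below 0, with a median of −0.34. Ifit2, an interferon-induced gene, stood at 13.2, 11.5 and 39.4 against 17.4, 13.996 and 10.1 CPM, with control replicate 4 high. Without that library the median was 0.09. Of 16 genes of NF-kappaB and cytokine signalling 1 was lower, the chemokine Ccl2 (9.78, 22.8 and 13.2 against 8.57, 10.0 and 5.62 CPM; list median −0.14).

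Genes with a small p were unevenly spread over the chromosomes, a feature looked for after the ranked list had been seen. At an unadjusted p below 0.005 there were 78 genes (0.413%), 25 higher and 53 lower. Chromosome 6 held 20 of them among 956 tested genes (2.09%), 3 higher and 17 lower, and 5 of the 20 ranked genes lie there: Rps4l, Rerg, Hebp1, Mrps35 and Setd5. No other chromosome exceeded 0.938%. The 20 genes ran, unevenly spaced, from Gng11 (4003904) and Cav1 (17306335) through Gimap8, Gimap4 and Gimap6 (48647234 to 48708225) to Rps4l (148354656). Hebp1, Gucy2c, Hist4h4, Rerg, Etnk1, Mrps35, Klhl42 and Rps4l lay together in 1 stretch (135137522 to 148355598). In beta cells 11 of them were tested and 7 called, all in the same direction; of the 58 genes with such a p on other chromosomes 36 were tested, 18 called and 16 of those had the same direction. The 7 were Gm7887 and, from the stretch that begins at Hebp1, Hebp1, Gucy2c, Etnk1, Mrps35, Klhl42 and Rps4l. Klhl42 stood at −0.70 in beta cells (edgeR adjusted p = 0.0038) and at −0.74 in non-beta cells. The other 9 genes did not enter the beta-cell test, among them Cav1, Clec1a and the 3 Gimap genes, all lower. The endothelial sum was lower in the same libraries, and its part in these differences was not tested.

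Chromosome 6 also carries the Rosa26 locus of the reporter, present in both groups. There Gt(ROSA)26Sor stood at −0.68 (unadjusted p 0.00194) and the adjacent Setd5 at 0.64, and neither was called in either fraction. The difference between the fractions was not called for them (edgeR adjusted p = 0.143 and 0.207). Without control replicate 3 the share of small p on chromosome 6 was 1.21% against 0.693% of all genes. Within 2 Mb of Txnrd1 on chromosome 10, 87 genes were tested, of which 1 was higher (Gm4924) and 5 lower (Tdg, Gm3055, Gm32687, 1190007I07Rik and Tbxa2r) at an unadjusted p below 0.05, against 4.34% of all tested genes in either direction. Gm3055 stood at −1.52 in non-beta and −1.98 in beta cells, and Gm32687 at −1.13 and −1.82. Whether position plays a part in these differences was not tested.

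**Figure D5:**
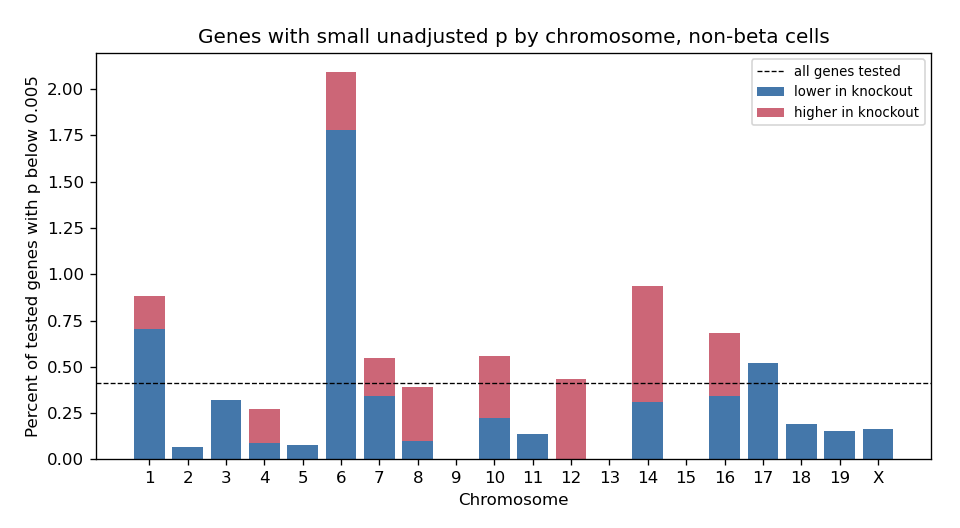
Percent of tested genes with an unadjusted edgeR p below 0.005 (y axis) on each chromosome (x axis), split into lower (blue) and higher (red) in knockout libraries, with the value over all genes as a dashed line (0.413%). Chromosome 6 stands highest, at 2.09%.

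The authors' deposited table named genes that overlap with the ranked set. Of its 12 genes, 8 are among the 20 above: Tdg, Rerg, Nupr1, Cd34, Hebp1, Gpr180, Clic5 and Lyz2 are named there with false discovery rates from 3.91e-08 for Tdg to 0.0432 for Lyz2. The others were Timmdc1, Stk25, Sh3tc2 and Mt2. Timmdc1, an assembly factor of respiratory complex I, stood at 11.3, 7.84 and 21.1 CPM in controls and 34.1, 31.7 and 36.2 CPM in knockouts (log2 fold change 1.34, edgeR unadjusted p 0.0027), and at 1.62 in beta cells. Sh3tc2 stood at 4.96, 2.85 and 4.27 against 1.28, 1.94 and 0.999 CPM. Mt2, a metallothionein that binds zinc, stood at 24.9, 30.7 and 38.0 against 72.7, 38.8 and 147 CPM, with 73.5% of its exon bases shared with another gene model.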

How the data were processed

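The raw counts per gene and the RPKM values were deposited by the authors, and RPKM was used here for levels between genes only. Per the submitters' processing notes, FastQC, STAR, edgeR and GRCm38.p6 were used, without versions; the counting program, its strand setting and the annotation release are not given in the sources used here. Libraries were made from 5 to 10 ng of RNA and read in pairs of 100 bases, per the labels' protocols. The deposited table of the authors' comparison holds log2 fold changes with p-values and false discovery rates, per the file headers.

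Counts of the 6 libraries were filtered by filterByExpr, scaled by TMM and tested with the quasi-likelihood F test of edgeR 4.0.16 in R 4.3.3, with Benjamini-Hochberg adjustment over all tested genes. The standard error was taken from the F statistic. DESeq2 1.42.0 and limma 3.58.1 were alternatives. The difference between fractions was an interaction contrast over 13 libraries. CPM of beta cells was scaled over the beta libraries alone. Coordinates came from GENCODE M21, which matched 55154 of 55421 identifiers. The test was tried on simulated counts first.

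The members, the 29 gene lists (382 genes) and the tests were chosen with earlier results of these data known. The text names Txnrd1, the 10 smallest p in each direction (mean of at least 5 CPM), the 3 smallest p of each list, marker genes, the 10 largest spreads (mean of at least 20 CPM) and 5 genes a direction with the smallest interaction p among genes at least 2-fold different in beta cells. The authors' 12 genes and the genes named by position were chosen after their values were seen. The labels do not say what the replicate numbers mark, so the numbers were not taken to pair the samples. Residual correlations of same-numbered libraries were −0.067 for number 2 and 0.30 for number 3. Other pairs of a control and a knockout library had −0.37 to 0.31. These values cannot decide on a pairing, as each rests on 1 pair of libraries. The values of 1 list member are not reported here.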

Additional observations from a re-analysis of the deposited data

Results flagged for a closer look

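The genotype difference of several named genes was not the same in the 2 fractions, by the edgeR interaction contrast over 13 libraries (adjusted p below 0.05). Given as the log2 difference in non-beta cells minus that in beta cells, the values were −1.15 for Txnrd1, −2.31 for Gstp1, −2.36 for Gstp-ps, −2.72 for Pir, −3.41 for F2r, −1.85 for Cat, −1.33 for Gsto1, −0.93 for Abcc4, −1.66 for Gdf15 and −0.68 for Rps4l. They were 1.83 for Meltf, 1.47 for C8b, 1.40 for Enpep, 1.49 for Kctd12b, 1.79 for Atp4a, 0.97 for Slc30a8 and 2.09 for Icam1. For Rps4l the difference in non-beta cells was the larger of the 2 (−0.98 against −0.31), whereas for the other 16 genes the beta-cell difference was larger in size. Groups of 3 libraries are too small for a screen of single outlying libraries.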

How the results depend on the processing

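Between knockout and control non-beta cells the count of genes called was 0 with RLE, library-total and upper-quartile scaling, with filters of 1 or 5 CPM in 3 libraries, with limma-voom, with summed insulin CPM as a covariate and on leaving out each library (0 to 0). It was 1 (Tdg) without a filter, 29 with DESeq2, 3 in the fit of all 13 libraries and 12 with the replicate block, to which only the pairs of libraries numbered 2 and 3 contribute. Genes at an unadjusted p below 0.05 ranged from 375 (without control replicate 2) to 1413 (without knockout replicate 3). The difference of the genotype label between fractions was called for 185 genes, for 225 with library totals (33 higher and 192 lower in non-beta relative to beta cells, against 63 and 122), for 557 with DESeq2 and for 62 to 289 on leaving out a library. The difference between fractions for Tdg ranged around 0, from -0.204 to 0.052. Log2 differences of the marker sums on leaving out a library ranged from -0.41 to 0.76 for acinar cells, 0.05 to 0.22 for alpha cells, -0.30 to 0.81 for beta cells, -0.44 to 0.07 for delta cells, -0.59 to -0.06 for duct cells, -0.58 to -0.32 for endothelial cells, -1.73 to 0.31 for epsilon cells, -0.50 to 0.26 for erythroid cells, 0.01 to 0.10 for lymphocytes, 0.05 to 0.29 for macrophage and dendritic cells, -0.33 to -0.00082 for mesenchymal cells, 0.09 to 0.32 for PP cells, -0.08 to 0.13 for Schwann cells, -0.02 to 0.21 for sex-linked genes. The cause of these shifts was not tested. The chromosome 6 ratio of 5.07 to the share of all genes was 1.74 to 4.25 on leaving out a library. At 28973507 to 34704024 counts a library and 3 libraries a group, simulated 2-fold differences between the non-beta groups were recovered in 30% of cases, so a smaller difference was mostly not detectable.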
